A study of Mus musculus with 6 samples.

Results

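The 43 genes described here copy the DNA of a cell or carry it through division: 20 act in S phase and 23 in mitosis. They were taken as a list of symbols, and each gene was read from the probe sets, groups of short probes on the array, that are annotated to its symbol alone. Such a probe set was found for 42 of the 43 genes, 20 of 20 for S phase and 22 of 23 for mitosis, and the signal of the cyclin B1 gene Ccnb1 was not analysed here. The 42 genes held 96 probe sets, 50 for S phase and 46 for mitosis, of the 34945 probe sets with 1 gene and the 45101 probe sets in all, which stand for 18193 genes. Each gene was represented by 1 probe set, the brightest on average over the 6 arrays. All 42 representatives passed the filter on low signal, which kept 11696 genes. Tyms passed only through its signal in 1 group, the TAK1-deficient cells.

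The samples were 6 RNA preparations from bone marrow B cells of C57BL/6 mice, 8 to 12 weeks of age and of mixed sex, without treatment. All were depleted of CD3, Ter119, CD11b, DX5 and Gr1 positive cells before B cells were sorted for an Igκ or Igλ light chain at the surface. The 3 groups, each of 2 arrays, were Igκ+ cells labelled mb-1/TAK1f/f, Igκ+ cells labelled mb-1/TAK1+/+ and Igλ+ cells labelled mb-1/TAK1+/+. The first group is called TAK1-deficient, and the others wild-type Igκ+ and Igλ+. The mb-1 label is common to all 3 groups, and the labels state neither whether mb-1 means a Cre allele nor how completely TAK1, a kinase upstream of NF-κB and MAP kinases encoded by Map3k7, was lost. Every value below is a MAS5 signal, an array intensity on a linear scale, unless a log2 value is named. Array 2 of a group is the one whose title ends in "-rep". The labels do not tie arrays to separate animals, so every p-value reflects only how these particular samples vary, and that variation may be technical.

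Cells prepare for S phase by loading the MCM helicase onto replication origins, and E2F transcription factors then drive the genes that make nucleotides and build the replication fork. Genes of mitosis are switched on later, largely through the MuvB complexes with B-MYB and FOXM1, and their proteins are degraded as cells leave mitosis. In bone marrow, large pre-B cells divide in bursts, whereas B cells that already carry a light chain at the surface have mostly stopped dividing. Bulk RNA was measured, so fewer cells of a type and less RNA per cell cannot be told apart.

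The TAK1-deficient arrays stood apart from the other 4. Their median signal was 324.3 and 323.0, against 44.9 to 59.1 on the wild-type arrays. The 95th percentile of control probe sets without a spiked target, used here as the level of background, was 77.7 and 75.7 against 10.3 to 17.4. Actb signal at the 3′ end over that at the 5′ end, a measure of RNA integrity, was 6.28 and 4.18 against 1.25 to 1.58. Pearson's r of log2 signals across probe sets, which are not independent, was 0.962 to 0.984 within the wild-type arrays, 0.920 within the TAK1-deficient pair and 0.435 to 0.512 across the genotypes. Map3k7 itself had signals of 346.3 and 599.4 on the TAK1-deficient arrays and 1805 to 2196 on the wild-type arrays. B cell markers were well above background on every array, with 0 of 9 at or below it.

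The mitosis genes did not have 1 level in wild-type B cells but 4, 1 on each array. Wild-type Igκ+ array 1 was the highest of the 4 wild-type arrays for 21 of 22 genes and Igλ+ array 2 the lowest for 22 of 22, which held for 19% and 25.8% of all genes kept. The complete order, Igκ+ array 1 above Igλ+ array 1 above Igκ+ array 2 above Igλ+ array 2, was met by 21 of 22 mitosis genes and by 3.16% of all genes. The exception was Aurka, the kinase of the spindle poles, with 301 on Igλ+ array 1 and 292 on Igκ+ array 1. This order was read off the values, and it is given as a description with no test. The mitosis signals of the 4 arrays summed to 22446 and 6289 on Igκ+ arrays 1 and 2, and to 12809 and 2819 on Igλ+ arrays 1 and 2.

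Chromosome proteins showed the order plainly. Mki67, whose protein coats mitotic chromosomes and is the usual mark of dividing cells, had 2457 and 763 on wild-type Igκ+ arrays 1 and 2, and 1379 and 203 on Igλ+ arrays 1 and 2. Top2a, the topoisomerase that untangles replicated DNA, had 2460, 757, 1137 and 252 on the same arrays in the same sequence. Cenpf, a kinetochore protein, had 290, 47.9, 102 and 24.3. For all 3 genes the 2 arrays of a group lay further apart than the 2 first arrays did from each other.

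The cyclins and kinases that start mitosis followed. Ccna2, cyclin A2, had 928 and 209 on Igκ+ arrays 1 and 2 and 483 and 51.7 on Igλ+ arrays 1 and 2. Ccnb2, cyclin B2, had 927, 172, 539 and 112, and Cdk1, the kinase these cyclins activate, had 1023, 245, 661 and 106. Array 1 over array 2 came to 4.18-fold to 5.40-fold among Igκ+ cells and 4.83-fold to 9.34-fold among Igλ+ cells for these 3 genes. Plk1, a kinase of mitotic entry, had 220, 56.2, 122 and 54.7, so its second arrays lay close together.

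Genes of the spindle checkpoint and of exit from mitosis spanned the arrays unequally. Bub1, a checkpoint kinase, had 538 and 110 on Igκ+ arrays 1 and 2 and 295 and 16.9 on Igλ+ arrays 1 and 2, the last of which lay at background. Its span of 31.8-fold was the largest among the mitosis genes and rests on that dim value. Bub1b, its partner in the checkpoint, had 657, 266, 418 and 208. Ube2c, the ubiquitin-conjugating enzyme of the anaphase-promoting complex, had 1261, 200, 641 and 89.6, and Cdc20, the activator of that complex, had 774, 259, 503 and 149. Both stayed above background on all 4 arrays.

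Components of the chromosomal passenger complex, which corrects attachment of chromosomes to the spindle, differed among themselves. Birc5, survivin, had 2677 and 748 on Igκ+ arrays 1 and 2 and 1722 and 143 on Igλ+ arrays 1 and 2, a span of 18.7-fold. Cdca8, borealin, had 1466, 397, 1199 and 161. Aurkb, the kinase of the complex, had 801, 380, 453 and 334, the smallest span of the 22 genes at 2.40-fold. All 3 nevertheless kept the order of the 4 arrays.

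Motors and spindle proteins were similar. Nusap1, which bundles spindle microtubules, had 1930 and 419 on Igκ+ arrays 1 and 2 and 794 and 201 on Igλ+ arrays 1 and 2. Prc1, which crosslinks the central spindle, had 1565, 448, 770 and 272, and Tpx2, an activator of Aurka, had 872, 254, 476 and 57.5. The other 4 genes of this group, the kinesins Kif11, Kif20a, Kif23 and Cenpe, had array 1 at 2.57-fold to 4.27-fold of array 2 in Igκ+ cells. Kif11 is represented here by a probe set that stayed under 200 on the wild-type arrays, with 132, 51.3, 86.3 and 48.0. Another of its probe sets had 970, 216, 309 and 32.8, in the same order.

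**Figure D1:**
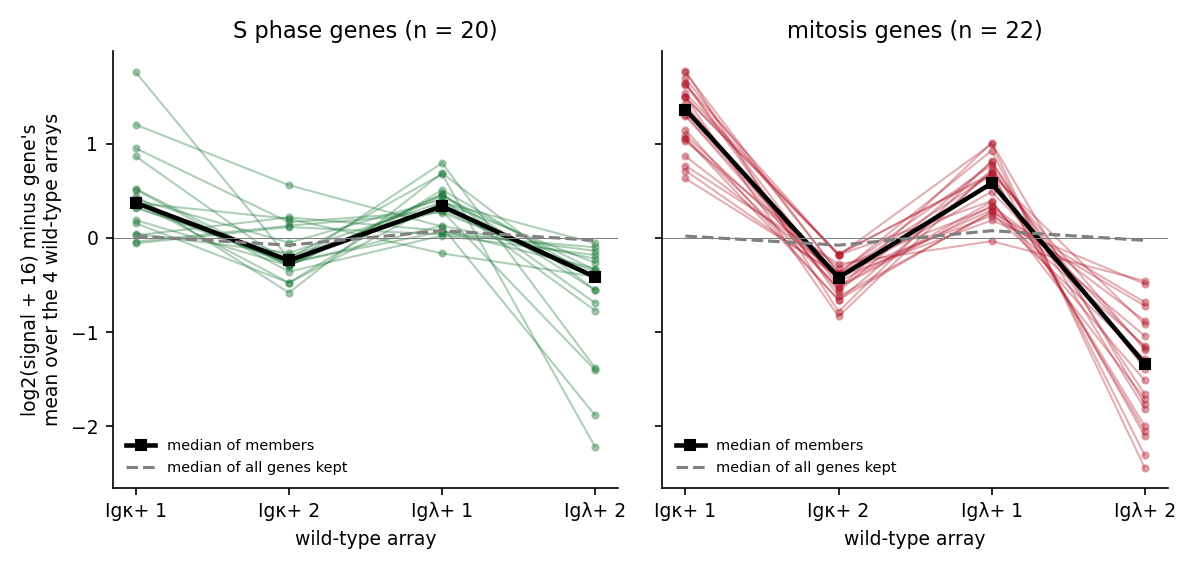
Each thin line is 1 gene and gives, on 4 wild-type arrays, its log2(signal + 16) minus its mean over those arrays, for 20 S phase genes (left) and 22 mitosis genes (right). Black squares are the median of the genes and the dashed line is the median of all genes kept. The mitosis median runs from 1.37 on Igκ+ array 1 to -1.34 on Igλ+ array 2, while the S phase median stays between -0.42 and 0.37.

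The S phase genes moved in the same sense but by much less. Their highest wild-type array exceeded their lowest by a median of 1.95-fold (range 1.16 to 20.4), against 8.71-fold (2.40 to 31.8) for the mitosis genes and 1.50-fold for all genes kept. A span of at least 4-fold was seen in 4 of 20 S phase genes and 18 of 22 mitosis genes, against 7.84% of all genes. The complete order of arrays was met by 6 of 20, Igκ+ array 1 was the highest for 11 of 20, and Igλ+ array 2 was the lowest for 14 of 20. In another 7 of 20 the highest was Igλ+ array 1, as in 1 of 22 mitosis genes and 40.7% of all genes. The S phase signals summed to 41651 and 31874 on Igκ+ arrays 1 and 2 and to 39409 and 24841 on Igλ+ arrays 1 and 2.

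The MCM helicase, the ring that opens DNA at the fork, had narrow spans. Mcm4 had 4700 and 3114 on wild-type Igκ+ arrays 1 and 2 and 3918 and 3398 on Igλ+ arrays 1 and 2. Mcm7 had 2318, 2610, 2875 and 1853, with Igκ+ array 2 above array 1. Mcm2, Mcm3, Mcm5 and Mcm6 were higher on array 1 than on array 2 of both groups, by 1.56-fold to 2.06-fold in Igκ+ cells and 1.28-fold to 2.40-fold in Igλ+ cells. The first arrays of the 2 groups lay close for all 6 subunits, with Igκ+ over Igλ+ at 0.806-fold to 1.20-fold.

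At the replication fork Pcna, the sliding clamp of the DNA polymerases, had 4862 and 5555 on Igκ+ arrays 1 and 2 and 5030 and 3803 on Igλ+ arrays 1 and 2. Fen1, the nuclease that trims Okazaki fragments, had 3700, 4176, 3955 and 3596, the smallest span of all 42 genes. Gins1, a subunit of the active helicase, had 944, 840, 646 and 542. Pclaf, a small protein that binds PCNA, broke from these with 1690, 1077, 789 and 184. It was lower on both Igλ+ arrays than on both Igκ+ arrays, and lowest on Igλ+ array 2.

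Genes of nucleotide supply and origin licensing were divided. Rrm2, the regulated subunit of ribonucleotide reductase, had 4952 and 2864 on Igκ+ arrays 1 and 2 and 3110 and 952 on Igλ+ arrays 1 and 2, while Rrm1, its large subunit, had 1663, 1166, 1640 and 987. Tk1, thymidine kinase, had 1199, 866, 1196 and 518. Cdc6, an origin loading factor, had 315, 133, 300 and 53.7, whereas Cdt1, which loads the helicase with it, had 3370, 2925, 4256 and 2715. Rrm2 and Cdc6 thus had spans over 5-fold, 5.20-fold and 5.88-fold, beside partners that stayed under 2-fold.

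Of the regulators, E2f8, a repressor of E2F targets in late S phase, had 1062 and 258 on Igκ+ arrays 1 and 2 and 494 and 52.1 on Igλ+ arrays 1 and 2. Its span of 20.4-fold was the largest in S phase and lay within the range of the mitosis genes. E2f1, an activator, had 325, 170, 227 and 194. The cyclins of S phase entry, Ccne1 with 598, 332, 575 and 248 and Ccne2 with 422, 297, 506 and 287, were each higher on both first arrays. The 4 S phase genes with a span of at least 4-fold were therefore E2f8, Pclaf, Cdc6 and Rrm2.

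**Figure D2:**
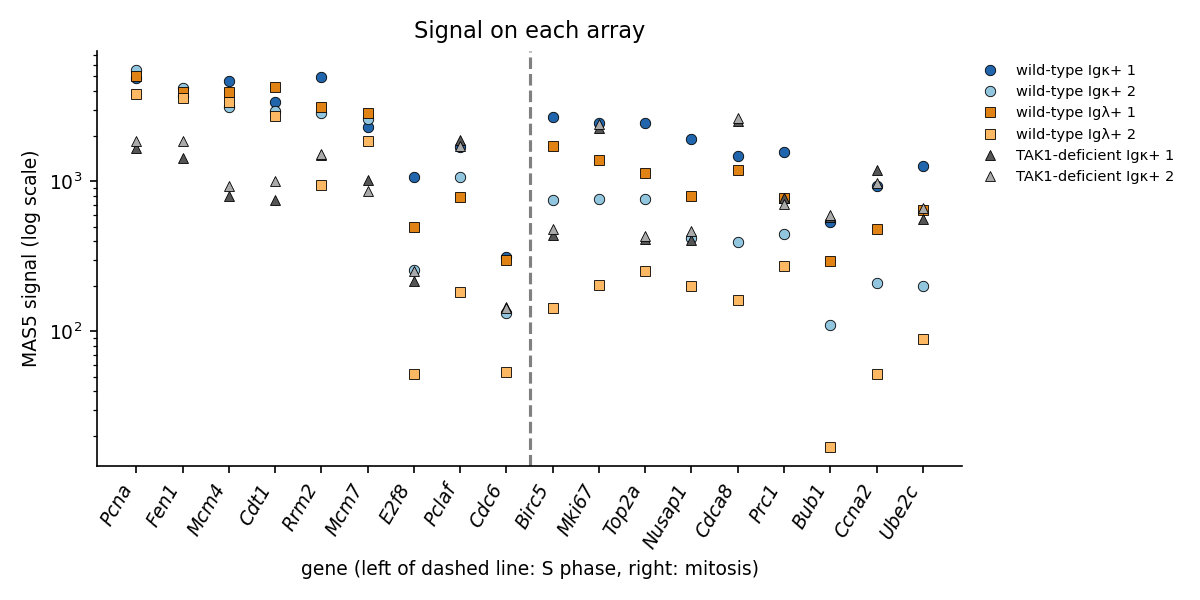
MAS5 signal (log axis) of the 9 S phase and 9 mitosis genes named by rule, with 1 symbol per array: circles wild-type Igκ+, squares wild-type Igλ+, triangles TAK1-deficient Igκ+, darker fill for array 1. Mitosis genes spread the 4 wild-type arrays widely, as in Birc5 (2677 to 143), while Fen1 keeps them together (4176 to 3596).

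Replicate arrays of a wild-type group differed more in mitosis genes than same-numbered arrays of the 2 groups did. Igκ+ array 1 was at least 2-fold above array 2 in 22 of 22 mitosis genes and 4 of 20 S phase genes, against 9% of all genes. Igλ+ array 1 was at least 2-fold above array 2 in 20 of 22 and 8 of 20, against 8.38%. Igκ+ array 1 was at least 4-fold above Igλ+ array 2 in 18 of 22 and 4 of 20, against 1.7%. Array 1 exceeded array 2 in both groups in 22 of 22 and 17 of 20, against 37.1%. The median ratio of array 1 to array 2 was 3.54-fold in Igκ+ and 4.36-fold in Igλ+ cells for mitosis genes, 1.57-fold and 1.71-fold for S phase genes, and 1.08-fold and 1.07-fold for all genes. Between light chains the median ratio of Igκ+ to Igλ+ was 1.74-fold for the first arrays and 1.88-fold for the second arrays in mitosis genes, and 1.01-fold and 1.20-fold in S phase genes.

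**Figure D3:**
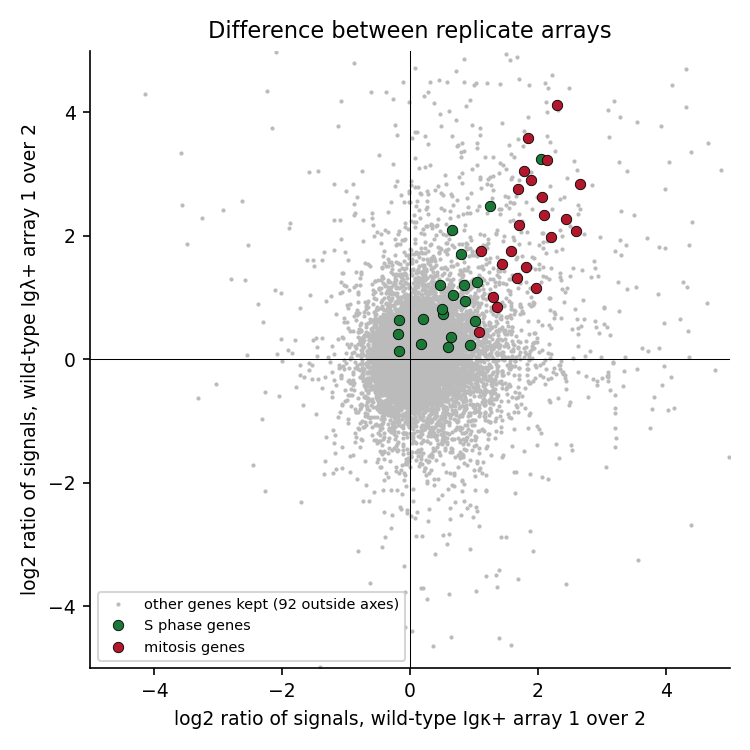
Log2 ratio of array 1 to array 2 in wild-type Igκ+ cells (horizontal) and wild-type Igλ+ cells (vertical) for each gene kept, with S phase genes in green, mitosis genes in red and other genes in grey. All 22 mitosis genes lie in the upper right quadrant, with median ratios of 3.54-fold and 4.36-fold, and 17 of 20 S phase genes do too.

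The same order was seen over probe sets. Among probe sets that reached a signal of 200 on a wild-type array, 30 of 33 for mitosis and 10 of 37 for S phase met the complete order, against 393 of 15649 of all probe sets with 1 gene. Other scalings of the arrays gave similar counts. With quantile normalization, which forces 1 distribution on all arrays, 20 of 21 mitosis genes kept met the order, with median centring 21 of 22, and with scaling on the spiked hybridization controls 22 of 22. The S phase counts were 5, 7 and 9 of 20 under these scalings.

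Markers of other cells also differed between the wild-type arrays, and their part in the pattern was not tested. The 13 granulocyte markers summed to 6231 and 404 on Igκ+ arrays 1 and 2 and to 46765 and 368 on Igλ+ arrays 1 and 2, so they too were higher on both first arrays, but highest on Igλ+ array 1. Of these markers 1, 4, 0 and 7 were at or below background on the 4 arrays, and Fcnb, a ficolin of granulocytes, had 57.8, 2.42, 1176 and 9.45. The 13 monocyte markers summed to 7905, 4832, 19098 and 6136, and the 12 erythroid markers to 5003, 4938, 7219 and 5267. Single bright genes weigh on these sums. Ms4a6c alone had 4447, 3501, 4704 and 4957 of the monocyte sums, and Tfrc 3641, 3204, 3178 and 4099 of the erythroid sums. Counted by gene, Igλ+ array 1 was the highest for 8 of 10 monocyte and 6 of 7 erythroid markers kept, against 40.7% of all genes. The 10 plasma cell markers summed to 35139, 27754, 25310 and 15412, with Jchain, the joining chain of secreted antibody, at 9837, 4130, 4147 and 117. Markers of pro-B and pre-B cells, 15 genes, summed to 10440, 8960, 10337 and 12972, and the sum was highest on Igλ+ array 2. Gene by gene the list was divided. Of the 12 kept, 7 were highest on Igλ+ array 1 and 4 on Igλ+ array 2. Vpreb3 had 2927, 3741, 2778 and 4478, whereas Dntt had 353, 111, 1287 and 43.3. B cell markers summed to 62587, 69328, 65202 and 67220, nearly level.

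**Figure D4:**
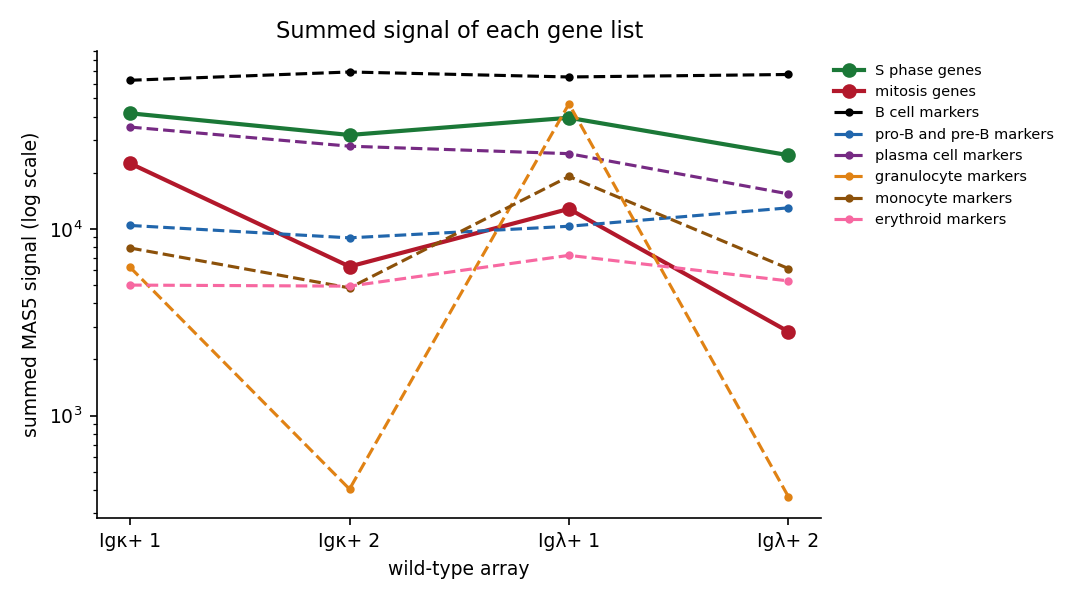
Summed MAS5 signal (log axis) of S phase genes, mitosis genes and 6 marker lists on the 4 wild-type arrays. The mitosis sum runs 22446, 6289, 12809 and 2819 from left to right, the granulocyte sum 6231, 404, 46765 and 368, and the B cell sum stays between 62587 and 69328.

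Since the mitosis genes moved together, their promoters were read from RefSeq (GRCm38.p6), as windows of 250 bases before to 50 after the start of a gene. Of the 43 genes, 36 were matched, among them Ccnb1, whose signal was not analysed here. On either strand, TTTGAA, the core of the cell cycle homology region (CHR) bound by MuvB, was found in 15 of 20 mitosis promoters (75%), 3 of 19 S phase promoters (15.8%) and 17.9% of all promoters. CCAAT, the box bound by NF-Y, was found in 18 of 20 (90%), 11 of 19 (57.9%) and 37.4%. An E2F site, as TTTCCCGC, TTTGGCGC, TTTCGCGC or TTTGCCGC, was found in 1 of 20 (5%), 7 of 19 (36.8%) and 2.26%. Some genes have more than 1 promoter window, and a match is a run of letters, not a measured binding site. The 4 sequences that follow show, before the start site, Bub1 and Ube2c, which were among the 4 mitosis genes with the widest wild-type spans on the log2 scale, and E2f8 and Pclaf, which had the widest in S phase. They are printed with CCAAT boxes (CCAAT or ATTGG) and CHR cores (TTTGAA or TTCAAA) in capitals. They lie at chr2:127831860-127832109 on the minus strand (Bub1), chr2:164769679-164769928 on the plus strand (Ube2c), chr7:48881597-48881846 on the minus strand (E2f8) and chr9:65890073-65890322 on the plus strand (Pclaf).
Bub1: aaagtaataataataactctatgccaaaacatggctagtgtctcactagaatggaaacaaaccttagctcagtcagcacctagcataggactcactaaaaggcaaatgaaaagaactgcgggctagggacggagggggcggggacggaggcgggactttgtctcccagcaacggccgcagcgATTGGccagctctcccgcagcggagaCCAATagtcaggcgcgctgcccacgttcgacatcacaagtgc
Ube2c: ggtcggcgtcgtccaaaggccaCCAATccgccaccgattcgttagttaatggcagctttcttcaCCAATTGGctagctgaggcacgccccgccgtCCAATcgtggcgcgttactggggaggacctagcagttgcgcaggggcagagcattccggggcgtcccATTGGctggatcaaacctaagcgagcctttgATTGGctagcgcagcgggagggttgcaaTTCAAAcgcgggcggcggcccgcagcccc
E2f8: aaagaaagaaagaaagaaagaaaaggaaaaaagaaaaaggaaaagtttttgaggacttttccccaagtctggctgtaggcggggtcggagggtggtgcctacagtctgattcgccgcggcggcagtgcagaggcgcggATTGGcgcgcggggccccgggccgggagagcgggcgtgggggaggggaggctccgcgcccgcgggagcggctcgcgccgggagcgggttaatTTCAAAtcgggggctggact
Pclaf: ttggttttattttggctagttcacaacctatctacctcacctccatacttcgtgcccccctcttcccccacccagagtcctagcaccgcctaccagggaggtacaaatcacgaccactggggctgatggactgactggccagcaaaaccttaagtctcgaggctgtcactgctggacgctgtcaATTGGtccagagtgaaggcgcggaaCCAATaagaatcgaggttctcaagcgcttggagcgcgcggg
Ube2c carried a CHR core 29 to 24 bases before its start and 6 CCAAT boxes, of which a pair overlaps as CCAATTGG. E2f8, an S phase gene by list whose signals spread like those of mitosis genes, carried a CHR core 20 to 15 bases before its start and a CCAAT box 112 to 108 bases before it. Bub1 and Pclaf each had a pair of CCAAT boxes, and these letters show no CHR core in the 250 bases of either. Birc5 had the widest wild-type span of the mitosis genes on the log2 scale, 4.08 against 4.07 for Bub1. It was matched to a promoter but is not printed. Ccna2, also among those 4 mitosis genes, was not matched. Each of the 4 printed sequences holds such letters, so they serve as examples, and nothing about the spans is read from their matches.

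The E2F letters of S phase genes are shown in windows of 30 bases for Cdc6 and 3 MCM genes, chosen after their values were seen, with the site in capitals. The windows lie at chr11:98908002-98908031 on the plus strand (Cdc6), chr8:75109345-75109374 on the plus strand (Mcm5), chr1:128359797-128359826 on the minus strand (Mcm6) and chr5:138172030-138172059 on the minus strand (Mcm7).
Cdc6: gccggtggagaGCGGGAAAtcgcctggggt
Mcm5: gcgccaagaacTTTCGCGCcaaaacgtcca
Mcm6: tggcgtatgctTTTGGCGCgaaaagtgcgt
Mcm7: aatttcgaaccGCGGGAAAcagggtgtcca
The sites begin 138, 153, 110 and 165 bases before the start of Cdc6, Mcm5, Mcm6 and Mcm7. Cdc6 varied by 5.88-fold across the wild-type arrays and these 3 MCM genes by 1.55-fold to 2.44-fold. Such letters also lay at or after the start of Cdt1, Mcm3 and Pclaf, which varied by 1.57-fold, 1.56-fold and 9.18-fold. Whether the letters bear on the span was not tested.

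The comparison of wild-type Igλ+ with Igκ+ cells asks whether the light chain goes with a difference in these genes. Mitosis genes had lower mean log2 signals in Igλ+ cells in 22 of 22 cases and S phase genes in 15 of 20, against 42.2% of all genes. No mitosis gene separated the groups, since Igλ+ array 1 lay above Igκ+ array 2 in each of them. In limma's test 0 of 11696 genes passed a Benjamini-Hochberg adjusted p of 0.05 (0% of all genes), while 78 genes were lower (0.667%) and 161 higher (1.38%) at an unadjusted p under 0.05. Among the 78 were 2 S phase genes and 0 mitosis genes.

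Those 2 were Pclaf and Rrm2. The mean signal of Pclaf was 1383 ± 433 in Igκ+ cells and 487 ± 428 in Igλ+ cells (± SD, n = 2 arrays each), a log2 difference of -1.77 ± 0.56 (SE). Its unadjusted p was 0.0133 and its Benjamini-Hochberg adjusted p was 1 in limma. Rrm2 had 3908 ± 1476 and 2031 ± 1526, a log2 difference of -1.12 ± 0.49, with an unadjusted p of 0.0498 and an adjusted p of 1 in limma. Pclaf and Gins1 were the 2 S phase genes whose groups did not overlap, both lower in Igλ+ cells, against 9.24% of all genes apart in that direction. Pclaf passed without Igλ+ array 1, with a limma adjusted p of 0.0427 and a log2 difference of -2.77, and it did not pass in any other fit.

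Log2 differences of mitosis genes lay between -1.45 (Birc5) and -0.24 (Aurka), with a median of -0.80, against -0.11 for S phase genes and 0.04 for all genes. The smallest unadjusted p among them was 0.0991, for Top2a at -1.32 ± 0.71 (SE) in limma's fit, with an adjusted p of 1. Their median SE was 0.74, against 0.38 for S phase genes and 0.31 for all genes. The median moved with the array left out: the mitosis median was 0.10 without Igκ+ array 1 and 0.08 without Igλ+ array 2, but -1.78 without Igκ+ array 2 and -1.76 without Igλ+ array 1. The S phase median was 0.15 and 0.23 in the former fits and -0.40 and -0.47 in the latter. Array 1 exceeded array 2 in both groups for 22 of 22 mitosis genes, so leaving out 1 array unbalances the array numbers. Between same-numbered arrays, which are not known to be pairs, the median Igκ+ to Igλ+ ratio of mitosis genes was 1.74-fold and 1.88-fold.

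The comparison of TAK1-deficient with wild-type Igκ+ cells asks how these genes stand when TAK1 is reduced in cells of the same light chain. Most genes of the arrays were called here, so the counts of members are set beside the shares of all genes. The median SE in this comparison was 0.74 for mitosis genes, 0.38 for S phase genes and 0.31 for all genes. Of 20 S phase genes, 13 were lower, 1 higher and 6 not called, and of 22 mitosis genes, 1 was lower, 1 higher and 20 not called, by limma with a Benjamini-Hochberg adjusted p under 0.05. Of all genes kept, 75.9% were called, 49.8% lower and 26.1% higher, beside 70% of S phase and 9.09% of mitosis genes. These shares include genes kept solely on account of the TAK1-deficient arrays, 1911 of all genes and 1 S phase gene, Tyms, and nothing is read from them. The balance of directions over all genes changed with the filter, with 5892 lower and 8811 higher without a filter and 5710 lower and 907 higher with a filter at the 60th percentile. That filter kept 8818 genes, 18 of them S phase genes, of which 13 were lower. The median log2 difference was -1.34 for S phase genes, 0.22 for mitosis genes and -0.70 for all genes. Without overlap between the groups, 15 S phase and 3 mitosis genes were lower (57.8% of all genes) and 2 and 6 higher (31.8%).

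All 6 MCM genes were called lower in TAK1-deficient cells, beside 49.8% of all genes kept. With a correction of both TAK1-deficient arrays for a trend with signal level (the level adjustment), Mcm7 was at 0.12. Mcm5 and Mcm6 were then at -1.14 and -0.58 and lost their calls, as did Mcm7. Mcm2 had 267 and 182 against 1740 and 1094 on the wild-type Igκ+ arrays, a log2 difference of -2.56 ± 0.40 (SE). Mcm5 had 319 and 201 against 2222 and 1081, and Mcm4 had 800 and 931 against 4700 and 3114. Their log2 differences ranged from -2.56 to -1.38, where Mcm7, with 1025 and 860 against 2318 and 2610, had the smallest. With the level adjustment, Mcm2, Mcm3, Mcm4 and Tk1 were the 4 S phase genes still called lower.

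Outside the helicase, Tk1 fell furthest, with 165 and 221 against 1199 and 866 and a log2 difference of -2.32 ± 0.42 (SE). Cdt1 had 746 and 1012 against 3370 and 2925, and Pcna had 1682 and 1852 against 4862 and 5555, log2 differences of -1.83 and -1.55. Rrm2 had 1507 and 1519 against 4952 and 2864, with a log2 difference of -1.31 ± 0.49 and an adjusted p of 0.0371 in limma, the weakest call among the 13. This call was lost without either TAK1-deficient array or without Igκ+ array 1 (limma adjusted p of 0.0998, 0.0962 and 0.225). It was also lost with quantile normalization (-0.59, limma adjusted p of 0.283) and with eBayes without a trend (0.0736), and with the level adjustment the log2 difference was 0.18. Gins1 and Rrm1 also fell, by 1.12 and 1.77 on the log2 scale, and Fen1 fell by 1.26 but was at 0.10 with the level adjustment. The regulators did not pass: E2f1 was at -0.65, E2f8 at -1.12, Ccne1 at 0.40, Ccne2 at -0.81, and likewise Cdc6 at -0.48 and Pclaf at 0.41.

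Tyms, thymidylate synthase, was the S phase gene called higher, with 808 and 892 against 38.5 and 19.1 and a log2 difference of 4.30 ± 0.36 (SE). Its 4 single-gene probe sets all stayed under 200 on the wild-type arrays. A probe set annotated to both Tyms and the pseudogene Tyms-ps, left out by the rule, had 370 and 322 on the TAK1-deficient arrays, 798 and 465 on the Igκ+ arrays and 673 and 123 on the Igλ+ arrays. The 2 readings point in opposite directions.

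In mitosis, the gene called lower was Plk1, with 21.4 and 37.8 against 220 and 56.2, a log2 difference of -1.54 ± 0.58 (SE) and an adjusted p of 0.0389 in limma. Both TAK1-deficient values lay below the background there, and the call was lost without either TAK1-deficient array or without Igκ+ array 1 (limma adjusted p of 0.167, 0.0643 and 0.273), and with eBayes without a trend (0.0563). The gene called higher was Kif11, with 3457 and 2876 against 132 and 51.3. Its other probe sets had 268 and 307 against 970 and 216, and 244 and 277 against 269 and 57.1, within the range of the wild-type arrays or close to it.

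For 9 of the remaining 20 mitosis genes both TAK1-deficient signals fell between those of the 2 wild-type Igκ+ arrays. Over all 22, TAK1-deficient array 1 was at a median of 0.890 of array 2 (range 0.443 to 1.32). Mki67 had 2267 and 2430 against 2457 and 763, a log2 difference of 0.77 ± 0.80 (SE). Birc5 had 439 and 485 against 2677 and 748, at -1.59 ± 0.99, and Top2a had 413 and 433 against 2460 and 757, at -1.66 ± 0.71. Cenpe had the highest log2 difference of the genes not called, 1.75 ± 0.73, with signals of 486 and 367 against 228 and 53.3. Cdca8 followed at 1.74 ± 0.85, with 2528 and 2663 against 1466 and 397. The mitosis signals of the TAK1-deficient arrays summed to 16755 and 17214, between the sums of the wild-type Igκ+ arrays. The median log2 difference of mitosis genes was 0.89 without Igκ+ array 1 and -0.58 without Igκ+ array 2. The S phase sums of 13608 and 14426 lay below those of all 4 wild-type arrays.

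**Figure D5:**
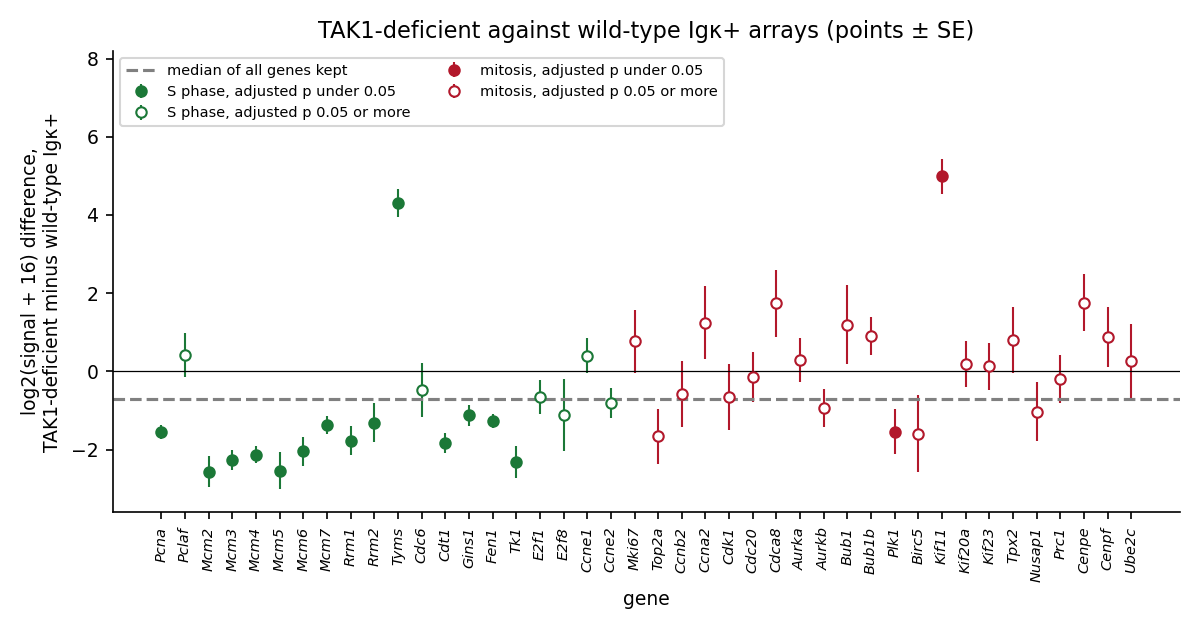
Difference in log2(signal + 16) between TAK1-deficient and wild-type Igκ+ arrays for each gene (points, with bars of 1 SE from limma), filled where the adjusted p was under 0.05. The dashed line at -0.70 is the median of all genes kept. The 6 MCM genes lie between -2.56 and -1.38, while most mitosis genes spread around 0.22 with bars that reach 0 or come near it; Tyms (4.30) and Kif11 (4.99) were read from probe sets that stayed under 200 on the wild-type arrays.

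These differences depended on the scaling. Against the median of all genes, -0.70, -0.91, -3.08, -3.97 and -0.02 as deposited, with quantile normalization, median centring, spiked-control scaling and the level adjustment, the S phase median lay lower by each of them, at -0.64, -1.52, -0.64, -0.76 and -0.51. The mitosis median lay above all genes by 0.93, 0.93 and 0.98 as deposited, with median centring and with spiked-control scaling, but at -0.52 with quantile normalization and -0.41 with the level adjustment. The filter moved the reference too. Without a filter the median of all genes was 0.84, which left the S phase median at -2.18 and the mitosis median at -0.62 relative to it, and with the 60th percentile it was -1.10, which left them at -0.36 and 1.29. The direction of the mitosis genes relative to other genes thus changed with the scaling and with the filter. Mitosis genes called lower and higher numbered 9 and 2 with quantile normalization, 14 and 1 with median centring, 18 and 1 with spiked-control scaling, and 1 and 0 with the level adjustment. S phase genes called lower numbered 15, 19, 19 and 4. All genes called lower and higher, 5824 and 3054 as deposited, numbered 9109 and 1346 with median centring, 9677 and 704 with spiked-control scaling and 2172 and 2641 with the level adjustment.

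Probe sets of 1 gene also disagreed between the genotypes. Of the genes with at least 2 probe sets, 9 of 16 in S phase and 8 of 15 in mitosis had probe sets on both sides of 0. Probe sets that never reached 200 on a wild-type array were higher in TAK1-deficient cells in 12 of 13 cases in S phase and 13 of 13 in mitosis. Probe sets that did reach 200 were lower in 32 and higher in 5 cases in S phase, and lower in 17 and higher in 16 in mitosis. One Top2a probe set, for example, had 2303 and 2209 against 45.2 and 22.3, opposite to the representative. The same shares over all probe sets were not counted. The median signal of a whole array was itself higher on the TAK1-deficient arrays, at 324.3 and 323.0 against 44.9 to 59.1. These counts are therefore not read as a trait of these genes. Markers of other cells differed as well, and their part in these differences was not tested. The 10 plasma cell markers summed to 6643 and 8139 on TAK1-deficient arrays, against 35139 and 27754 on the wild-type Igκ+ arrays. Of the 10, 6 were called lower and 2 higher by limma, against 49.8% and 26.1% of all genes. Of 12 markers of pro-B and pre-B cells kept, 2 were called lower and 5 higher, beside the same shares. The TAK1-deficient arrays alone carried 1 of the 10 and 3 of the 12 past the filter. The largest log2 differences among the 5 were those of Arpp21 at 5.80 and the recombinase gene Rag2 at 3.84. Both were dim on the wild-type arrays, with 15.1 to 21.0 and 6.56 to 41.6. They are among the 3 that the TAK1-deficient arrays alone carried past the filter, so nothing is read from their calls. The pro-B and pre-B markers, 15 genes, summed to 11302 and 11223 on TAK1-deficient arrays, against 10440 and 8960 on the wild-type Igκ+ arrays. The 10 T cell markers summed to 5464 and 5767 on TAK1-deficient and 226 to 365 on wild-type arrays, and 12 stromal and endothelial markers to 7103 and 6871 against 1056 to 1370.

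Other genes of the same pathways were counted as well. Of 37 other replication genes kept, from a list of 40, 21 were lower and 3 higher in TAK1-deficient Igκ+ cells by limma, against 49.8% and 26.1% of all genes, with a median log2 difference of -1.02. Dut, which keeps uracil out of DNA, had 149 and 280 against 2621 and 2520, and Pold2, a subunit of DNA polymerase delta, had 85.7 and 67.2 against 836 and 691. Background on TAK1-deficient arrays 1 and 2 was 77.7 and 75.7, so Pold2 lay near it on array 1 and below it on array 2. Of 50 other mitosis genes, 14 were lower and 11 higher, against the same background, with a median of -0.16. Among the latter, Aspm, a spindle pole protein, had 2160 and 2207 against 600 and 96.9, and the checkpoint kinase Ttk had 947 and 913 against 295 and 74.4. Of 27 genes of the G1 phase kept, from a list of 30, 17 were lower and 1 higher, again beside 49.8% and 26.1%, with a median of -1.07. Cdk2, the kinase partner of the E cyclins, had 81.3 and 138 against 1167 and 1237, although Ccne1 and Ccne2 did not pass. The 81.3 of Cdk2 also lay near background.

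The same lists repeated the pattern of the wild-type arrays in part. Of the 50 other mitosis genes, 29 met the complete order and 42 had their highest wild-type signal on Igκ+ array 1, against 3.16% and 19% of all genes. Igκ+ array 1 was at least 2-fold above array 2 in 30 of the 50, and Igλ+ array 1 above array 2 in 26, against 9% and 8.38%. The order was met by 14 of 37 other replication genes and 1 of 27 G1 genes. For the light chains, 0 genes of the 3 lists passed in limma, while 1, 2 and 4 of the replication, mitosis and G1 genes were lower at an unadjusted p under 0.05, against 0.667% of all genes, and 0 were higher. The smallest unadjusted p belonged to Tfdp1, the dimer partner of E2F factors, with 1976 and 1878 in Igκ+ and 979 and 1046 in Igλ+ cells, a log2 difference of -0.92 ± 0.18 (SE), an unadjusted p of 0.00105 and an adjusted p of 1. Uhrf1, which maintains DNA methylation behind the fork, had 3118 and 2805 against 1883 and 1389. These 2 genes were named for their small p, so nothing is read from the gap between their groups. Without overlap, 7 of the 37 replication, 5 of the 50 mitosis and 7 of the 27 G1 genes of these lists were lower in Igλ+ cells. The share of all genes was 9.24%, and among the 22 mitosis members it was 0.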

How the data were processed

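RNA of 6 samples was measured on Affymetrix arrays. The deposited values are linear array intensities from MAS5, as the submitters' processing notes name it, and the mean of every array, without the lowest and highest 2% of probe sets, is 500. The MAS5 version and a genome build are not stated here. Gene names came from GEO's annotation of the platform, and the 932 probe sets with several genes entered no test. Signals were converted to log2(signal + 16), which understates the change of dim genes. A gene was kept where its representative lay, on average, over the 40th percentile of probe sets. Groups were compared with limma 3.58.1 in R 4.3.3: a mean per group over 6 arrays, 3 residual degrees of freedom, eBayes with a trend, two-sided, Benjamini-Hochberg adjustment over 11696 genes. The alternatives were pseudocounts of 1 and 64, no filter, the 60th percentile, 4 other scalings or adjustments (lowess span of 0.2), every probe set, the probe set with the highest wild-type mean, no trend, a fit of the 4 arrays alone, a replicate block by title suffix, and each array left out. Figures were drawn with matplotlib 3.10.9.

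The members and lists were chosen with earlier results of these data known, so no list was tested, and counts are set beside those of all genes. Full values were given for the 6 S phase and 6 mitosis genes with the highest wild-type mean, for the 4 of each with the largest wild-type range, and for Mki67, Top2a, Pcna and Pclaf; of each other list, up to 4 genes with the largest change past the threshold or the 2 with the smallest p were eligible. Other members were named with fewer values. The NK cell markers, 9 genes, summed to 1068 to 3660 on wild-type and 2002 and 2058 on TAK1-deficient arrays. On simulated data of 11696 genes, where true changes were 1, 2, 3 or 4 log2 units, limma recovered 10%, 56%, 96% and 100% of them between the genotypes, with 5 false calls, and 28%, 80%, 96% and 100% between the light chains, with 12. Both simulations used the same spread and equal group means, so these shares differ by the random draw alone. Few genes were changed there, whereas 75.9% of real genes were called between the genotypes. The shares therefore do not carry over to that comparison. Noise was drawn for each gene independently, without the larger spread of mitosis genes (median SE of 0.74 against 0.31 for all genes). For mitosis genes the shares do not carry over between the light chains either. Promoter letters were searched in RefSeq windows, and no coordinates of the arrays were used. The number of arrays limits the precision.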

Additional observations from a re-analysis of the deposited data

How the results depend on the processing

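Between the light chains, the counts and medians over the members moved by less than the spread of replicates under each alternative tried except leaving out arrays. With 1 array left out, the S phase median ran from -0.47 to 0.23, the mitosis median from -1.78 to 0.10, the S phase genes called lower from 0 to 1 and all genes called from 0 to 68. Between the genotypes, leaving out 1 array gave 12 to 14 S phase genes lower and 1 higher with medians from -1.58 to -1.32, 0 to 3 mitosis genes lower and 1 to 4 higher with medians from -0.58 to 0.89, and 7899 to 9242 genes called in all. Where 1 array of a group remained, its spread was assumed equal to that of the others. The S phase median was -2.44, -3.72, -4.73 and -0.53 with quantile normalization, median centring, spiked-control scaling and the level adjustment, and the mitosis median was -1.43, -2.16 and -2.99 with the first 3. Mitosis genes called lower numbered 9, 14 and 18 with these 3, 0 with a pseudocount of 64 or without a trend, and 3 with only the 4 arrays compared. Mitosis genes called higher numbered 2 with a pseudocount of 64 and with quantile normalization, 4 with every probe set as a feature, 3 with only the 4 arrays compared, and 0 with the probe set of highest wild-type mean or the level adjustment. S phase genes numbered 26 lower and 5 higher with every probe set, 0 higher with the 60th percentile and 4 lower with the level adjustment. All genes called numbered 14703 without a filter, 15802 with every probe set and 4813 with the level adjustment. More features were tested without a filter or with every probe set, and fewer with the 60th percentile. With the probe set of highest wild-type mean, Kif11 was read from another probe set. For the others the cause was not tested.

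Single genes turned sign where a call was at stake. With quantile normalization Aurka was at -1.92 and Kif20a at -1.92. With median centring Pclaf was at -1.97, Ccne1 at -1.98, Aurka at -2.09, Bub1b at -1.47, Kif20a at -2.19, Kif23 at -2.25 and Ube2c at -2.12. With spiked-control scaling Pclaf was at -3.00, Ccne1 at -2.90, Mki67 at -2.65, Ccna2 at -2.10, Aurka at -2.81, Bub1b at -2.42, Kif20a at -2.94, Kif23 at -3.06, Tpx2 at -2.52, Cenpf at -2.13 and Ube2c at -3.04. With the probe set of highest wild-type mean Kif11 was at -0.66, and with the level adjustment Mcm7 was at 0.12, Rrm2 at 0.18, Fen1 at 0.10 and Kif11 at -1.15. Same-numbered arrays deviated together only weakly, with r across genes of 0.01 and 0.03 between TAK1-deficient and wild-type Igκ+ or Igλ+ arrays and 0.22 between the wild-type groups, so the numbers were not taken to pair the samples. With the title suffix as a replicate block, 2 mitosis genes were called lower and 3 higher for TAK1-deficient cells, 8915 genes in all, and 0 genes for the light chains. Dim signals limit Bub1, at or below background on Igλ+ array 2, and Plk1, below it on both TAK1-deficient arrays.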
